A study of Mus musculus with 37 samples.

Results

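The genes described here are 10 markers of endothelium and of its precursor, the haemangioblast, measured by RNA-seq in the tailbud of 37 mouse embryos with 6 to 11 somites. They are Kdr, Flt1, Tek and Tie1 (receptors), Pecam1 and Cdh5 (junction proteins), and Etv2, Tal1, Lyl1 and Sox18 (transcription factors). They were chosen by symbol from the table of raw counts, which holds 35542 genes after repeated identifiers were dropped, and each symbol matched 1 row. All 10 passed the filter on low counts in every fit over stages. Embryos were C57BL/6 by Castaneus crosses. Smchd1wt controls (21 embryos) carried a floxed maternal Smchd1 allele from mothers with floxed alleles only. Smchd1matΔ embryos (16) came from mothers with a deleted and a floxed allele, in which an MMTV-Cre transgene removed the floxed allele in the oocyte. These embryos developed from oocytes null for Smchd1 and inherited a deleted maternal and an intact paternal allele. The mother's Cre status and own heterozygosity, the oocyte deletion and the heterozygosity of the embryo therefore cannot be told apart in this design. The labels gave 4 Smchd1wt and 4 Smchd1matΔ embryos at 6 somites, 4 and 3 at 7, 3 and 2 at 8, 3 and 2 at 9, 4 and 3 at 10, and 3 and 2 at 11. Females numbered 13 of the Smchd1wt and 11 of the Smchd1matΔ embryos.

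Endothelium lines blood vessels, and in the mouse embryo it arises from mesoderm that also gives rise to the first blood cells. The transcription factor ETV2 starts this programme in mesoderm that makes the VEGF receptor KDR, and TAL1 and LYL1 act in the shared progenitors of blood and vessel. Once cells are committed, they turn on the junction proteins CDH5 (VE-cadherin) and PECAM1 and the angiopoietin receptor family of TEK and TIE1. Between 6 and 11 somites the paired dorsal aortae extend towards the tail, and the allantois, which joins the tail end of the embryo, forms vessels of its own.

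The depth of a library, as a multiple of 1e6 counts, ran from 3.06 to 80.6 (median 12) for Smchd1wt and from 0.916 to 30.2 (median 14.2) for Smchd1matΔ embryos. Smchd1 itself averaged 149 ± 22.8 CPM (counts per 1e6 counts, SD, n = 21) in Smchd1wt and 88.7 ± 13.4 CPM (n = 16) in Smchd1matΔ embryos, and 14 of the 16 lay below every control. All 10 tailbud markers, among them T, Tbx6 and Cdx2, had counts in every embryo. Some libraries stood apart. The library labelled Smchd1matΔ 6 somites replicate 3 was the shallowest, at a depth of 0.916 on this scale, and held 0 counts of Lyl1 and Sox18, which allows up to 3.29 CPM. Replicates 1 and 2 of the same group had 2.77% and 1.82% of their counts on 2 genes that collect ribosomal RNA reads (Gm42418 and CT010467.1), against 0.176% to 1.28% in the other 35 embryos.

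Per length of exon, Kdr and Etv2 were the most abundant of the 10 genes. Kdr (chr5:75932827-75978458, minus strand, GRCm38), the main VEGF receptor of endothelium and its precursors, had a median of 15.8 RPKM (CPM per kilobase of exon) and a range of 10.8 to 28.8 over the 37 embryos. Etv2 (chr7:30633616-30635852, minus) had a median of 15.1 RPKM and a range of 2.09 to 28.6. Kdr lay above Etv2 in 22 of the 37 embryos, and their mean difference of 0.24 on the log2 scale was smaller than its SD over embryos of 0.53, so the order of these neighbours was not set. Tal1 (chr4:115056426-115071755, plus) followed at a median of 8.82 RPKM and lay below Etv2 in 35 embryos. Tal1 lay above Cdh5 (chr8:104101625-104144511, plus, median 8.79 RPKM) in 14 of the 37, and these neighbours could not be ordered either.

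The remaining 6 genes were lower. The angiopoietin receptor Tek (chr4:94739289-94874976, plus) had a median of 6.17 RPKM, and Sox18 (chr2:181669836-181671640, minus), a factor of vessel and lymphatic development, 4.84 RPKM. Tie1 (chr4:118471191-118490061, minus), a relative of Tek that modulates its signalling, stood at 3.38 RPKM and Pecam1 (chr11:106654217-106750628, minus) at 2.83. Flt1 (chr5:147561604-147726011, minus), the VEGF receptor that mostly restrains signalling through KDR, had 1.86 RPKM, and Lyl1 (chr8:84701449-84704940, plus) 1.31. Of the neighbours in this order, Cdh5 to Tek, Tek to Sox18, Sox18 to Tie1, Tie1 to Pecam1 and Flt1 to Lyl1 differed by less than the SD of the difference over embryos. Etv2 to Tal1 and Pecam1 to Flt1 differed by more than it.

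**Figure D1:**
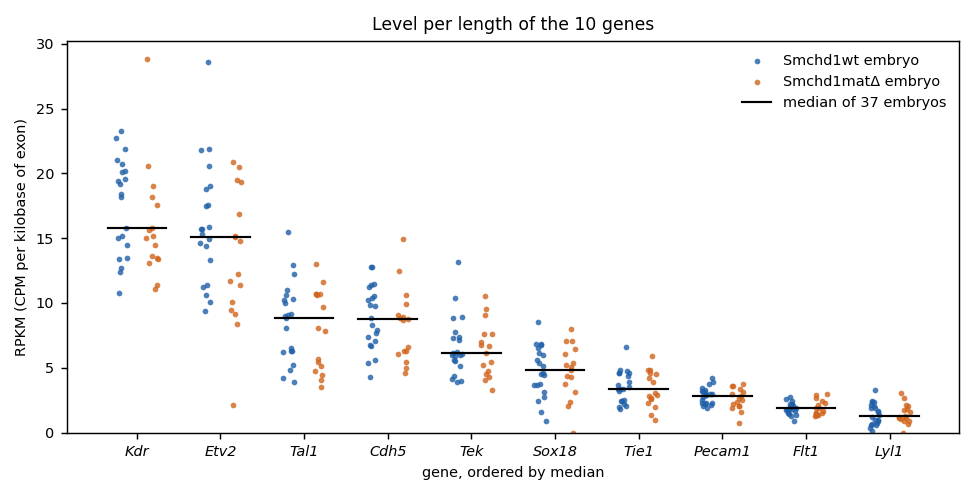
Level per length of each gene (RPKM, vertical axis) in each of the 37 embryos, with genes ordered by their median (black line). Kdr and Etv2 have medians of 15.8 and 15.1 RPKM and Lyl1 the lowest at 1.31, and the 2 genotypes overlap for every gene.

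The counts behind these levels differ by gene. Kdr had a median of 1864 counts per embryo, Cdh5 434, Tal1 446 and Tek 383. Lyl1 had a median of 33 counts and Sox18 87, so their values in shallow libraries carry the widest counting error. Lyl1 shares 4 exon bases with Nfix on the other strand, which had 141 counts in all libraries together against 1574 of Lyl1. The antisense gene Gm29682 overlaps Cdh5 without shared exon bases and had 1 count in all.

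Promoter sequence is shown for the 2 genes with the highest level per length, Kdr and Etv2, and for Lyl1, which with Sox18 formed the pair with the highest Pearson's r over the 37 embryos, though not without the shallowest embryo or by rank. Each is the 250 bases before the RefSeq start site on GRCm38.p6, written 5′ to 3′ on the gene's own strand. Capitals mark GGAA and its reverse complement TTCC, the core of the sites that ETS factors such as ETV2 bind. The windows are chr5:75978456-75978705 (minus) for Kdr, chr7:30635853-30636102 (minus) for Etv2 and chr8:84701207-84701456 (plus) for Lyl1.
Kdr: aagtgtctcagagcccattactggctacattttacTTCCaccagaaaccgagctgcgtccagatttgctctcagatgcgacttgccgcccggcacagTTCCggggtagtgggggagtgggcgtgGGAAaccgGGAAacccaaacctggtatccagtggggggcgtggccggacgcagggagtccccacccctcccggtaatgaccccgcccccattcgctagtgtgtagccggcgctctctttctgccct
Etv2: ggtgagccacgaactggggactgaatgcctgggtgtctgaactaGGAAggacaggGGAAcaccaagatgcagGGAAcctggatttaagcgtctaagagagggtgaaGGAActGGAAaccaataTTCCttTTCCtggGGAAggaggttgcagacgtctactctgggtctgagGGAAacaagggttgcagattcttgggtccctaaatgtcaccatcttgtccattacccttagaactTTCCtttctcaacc
Lyl1: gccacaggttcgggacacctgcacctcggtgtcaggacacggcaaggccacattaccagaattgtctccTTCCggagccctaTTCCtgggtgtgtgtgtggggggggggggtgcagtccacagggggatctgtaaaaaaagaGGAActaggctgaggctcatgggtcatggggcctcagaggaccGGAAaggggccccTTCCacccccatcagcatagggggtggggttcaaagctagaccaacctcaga

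GGAA or TTCC occurred 4 times in the Kdr window, 10 times in that of Etv2 and 5 times in that of Lyl1. RefSeq's table held a promoter for 7 of the 10 genes (not for Pecam1, Cdh5 and Sox18), and all 7 windows held at least 1 match. Such a match is common, since 93.4% of the 32851 promoters of the table held one within 250 bases, with a median of 3. GATA or its reverse complement TATC, the core of GATA factor sites, occurred in 3 of the 7 windows (Kdr, Tek and Tal1, which had 4) against 53.6% of all promoters. CANNTG, the E-box that TAL1 and LYL1 bind with partner proteins, occurred in 4 of the 7 (Kdr, Tek, Tie1 and Lyl1) against 66.2%. These are matches of letters within the window and no measure of binding. Tal1 has 2 promoters in the table, of which the one at the deposited gene's 5′ end was used, and the RefSeq start of Tie1 lies 212 bases inside the deposited gene.

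The first comparison asks whether the genes changed as somites were added. Over all 37 embryos, 6 of the 10 genes rose with somite number and none fell: Tie1, Cdh5, Tal1, Lyl1, Sox18 and Pecam1 (edgeR quasi-likelihood test with genotype and sex as covariates, Benjamini-Hochberg adjustment over 15575 genes). Kdr, Flt1, Tek and Etv2 did not pass. Among all genes tested 9.1% rose. The slope shared by all embryos was fitted after the data had been seen. The median slope of the 10 genes was 0.14 on the log2 scale per somite, against -0.0024 over all genes tested.

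Cdh5 and Tie1 had the most regular rise. Cdh5, the cadherin of endothelial junctions, went from 26.3 ± 6.64 CPM (SD, n = 4) at 6 somites to 28.8 ± 5.16 (n = 4) at 7, 40.4 ± 6.28 (n = 3) at 8, 44 ± 8.87 (n = 3) at 9, 44.9 ± 3.19 (n = 4) at 10 and 43.6 ± 13.4 (n = 3) at 11 in Smchd1wt embryos. In Smchd1matΔ embryos the same stages gave 24.5 ± 3.22 (n = 4), 27.5 ± 8.87 (n = 3), 31.4 ± 8.53 (n = 2), 44.5 ± 11.3 (n = 2), 47.5 ± 13.4 (n = 3) and 41 ± 5.24 CPM (n = 2). Most of the difference thus lay between 7 and 9 somites in either genotype, and the values of 9 to 11 somites overlapped. Of the 12 embryos with 10 or 11 somites, 11 lay above every one of the 15 embryos with 6 or 7 somites. The shared slope was 0.17 ± 0.0282 (SE) per somite, a 1.82-fold rise over 5 somites (adjusted p = 2.11e-05).

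Tie1 rose by 0.22 ± 0.0346 per somite, a 2.11-fold rise over 5 somites (adjusted p = 1.56e-05). Its values ran from 4.83 to 16.7 CPM (median 11.8) in the 15 embryos of 6 and 7 somites and from 12.2 to 32.5 CPM (median 22.6) in the 12 embryos of 10 and 11 somites. As for Cdh5, 11 of the 12 later embryos lay above every early one. Pecam1, an adhesion protein of endothelium and of some blood cells, rose less, by 0.11 ± 0.0295 per somite (adjusted p = 0.01). Its early range of 4.39 to 21.3 CPM overlapped the later range of 12.7 to 26.2.

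Of the transcription factors, Tal1, Lyl1 and Sox18 rose. Tal1 went from a median of 23 CPM (range 15.4 to 53.6) at 6 and 7 somites to 46.7 (27.1 to 67.7) at 10 and 11, with a slope of 0.20 ± 0.0408 (adjusted p = 0.000601). Lyl1, its close relative, had the steepest slope of the 10, 0.29 ± 0.0618 per somite (adjusted p = 0.000714), from a median of 1.59 CPM (0 to 2.96) to 3.51 (1.7 to 5.93). All 12 later embryos lay above the early median for each of these genes, but the early and later ranges overlapped. Sox18 rose by 0.20 ± 0.0536 per somite (adjusted p = 0.00606), and 4 of the 12 later embryos lay above every early one.

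Kdr had no linear trend. Its slope was 0.0026 ± 0.0324 per somite (95% interval -0.061 to 0.066, adjusted p = 0.968), and the median was 138 CPM at 6 and 7 somites and 136 CPM at 10 and 11. Between these it was higher: over both genotypes it averaged 136 ± 20.8 CPM at 6 somites (n = 8), 148 ± 36.6 at 7 (n = 7), 180 ± 33.2 at 8 (n = 5), 188 ± 43.5 at 9 (n = 5), 147 ± 28.2 at 10 (n = 7) and 130 ± 31.7 at 11 (n = 5). Etv2 had a like course, with 11.8 ± 4.47, 15.2 ± 4.63, 19.2 ± 7.34, 20 ± 2.47, 15.8 ± 4.92 and 15 ± 3.75 CPM at the same stages. A squared term of somite number, added after these values had been seen, was negative for all 10 genes and lowest in p for Kdr (-0.075 ± 0.019) and Etv2 (-0.081 ± 0.0272). No gene passed adjustment for it (edgeR 0% of 15978 genes, 862 at an unadjusted p under 0.05, and 2 genes, neither of them a member, with DESeq2), and the adjusted p was 0.475 for Kdr and 0.768 for Etv2.

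Flt1 and Tek lay between these courses. Flt1 had a slope of 0.074 ± 0.0329 (adjusted p = 0.114) and Tek of 0.095 ± 0.0401 (adjusted p = 0.0964), with intervals of 0.0093 to 0.14 and 0.016 to 0.17. Tek had its highest value, 62 CPM, in a Smchd1wt embryo of 10 somites, and 49.3 CPM (45 counts) in the shallow Smchd1matΔ embryo of 6 somites. Without that embryo Tek passed as well (adjusted p = 0.043), and 7 of the 10 genes rose. It also passed without replicate 2 of the Smchd1wt embryos of 11 somites (adjusted p = 0.0331). Flt1 passed without replicate 2 of the Smchd1matΔ embryos of 7 somites (adjusted p = 0.0422).

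**Figure D2:**
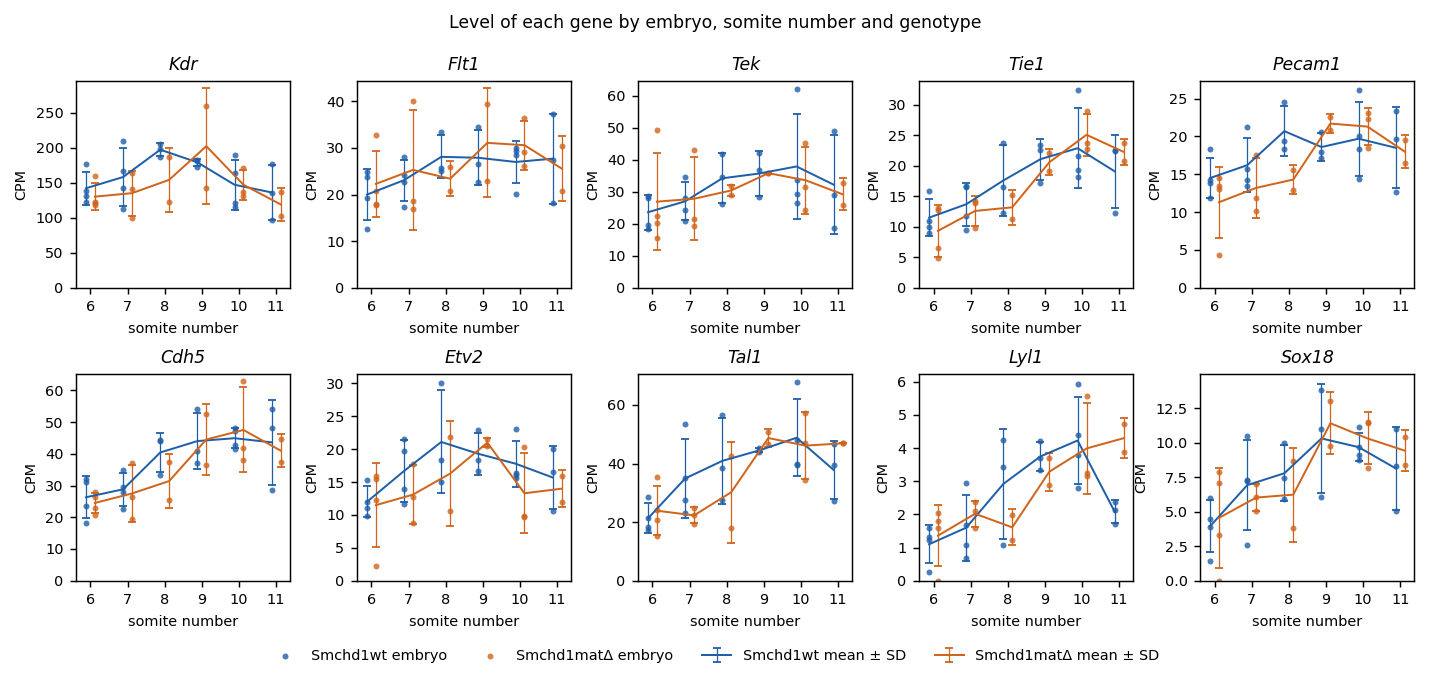
CPM of each gene (vertical axis, from 0) against somite number in Smchd1wt (blue) and Smchd1matΔ (orange) embryos, with a point for each embryo and lines through the group means with their SD (n = 2 to 4 per group). Cdh5 and Tie1 step up between 7 and 9 somites, whereas Kdr and Etv2 have their highest means at 8 and 9 somites.

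The difference between Kdr and the others was tested within embryos, where a factor common to both genes of a ratio cancels. The log2 ratio of each of the other 9 genes to Kdr was regressed on somite number, permuting embryos within genotype (100000 permutations, two-sided, chosen after the data had been seen). The ratio rose for 8 of the 9 genes. Kdr had the lowest slope of the 10 genes, near 0, so a ratio to it largely repeats the slope of the other gene. The adjustment covered these 9 ratios only, and the share of all genes whose ratio to Kdr rose is not given here. It rose by 0.24 ± 0.0387 (SE) per somite for Tie1, 0.18 ± 0.0277 for Cdh5 and 0.22 ± 0.0349 for Tal1, each with the smallest p these permutations can give (1e-05, adjusted p = 3e-05). The ratios of Flt1 (0.086 ± 0.032, permutation adjusted p = 0.0145) and Tek (0.093 ± 0.0414, permutation adjusted p = 0.0347) rose less. Only that of Etv2 did not pass (0.089 ± 0.0471, permutation adjusted p = 0.0599). On the same scale the median log2 ratio of Cdh5 to Kdr was -2.44 at 6 and 7 somites and -1.66 at 10 and 11.

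Within genotypes, fewer genes passed at the smaller n. In the 21 Smchd1wt embryos 2 of the 10 rose, against 3.05% of the 15148 genes tested: Cdh5 (0.16 ± 0.0356 per somite, edgeR adjusted p = 0.00564) and Tie1 (0.18 ± 0.0457, adjusted p = 0.019). In the 16 Smchd1matΔ embryos 4 rose, against 2.01% of 15477 genes: Tie1 (0.27 ± 0.0509, adjusted p = 0.00451), Tal1 (0.25 ± 0.0561, adjusted p = 0.0188), Cdh5 (0.19 ± 0.0448, adjusted p = 0.024) and Lyl1 (0.27 ± 0.0734, adjusted p = 0.0435). Tal1 and Lyl1 had slopes of 0.18 ± 0.0557 and 0.31 ± 0.0994 in Smchd1wt embryos and did not pass there (adjusted p = 0.0633 and 0.0658). Both passed there with DESeq2 (adjusted p = 0.00844 and 0.0111), without 8 somites replicate 3 (0.0284 and 0.042) and without 11 somites replicate 2 (0.023 and 0.0368), Tal1 also without 7 somites replicate 2 (0.0242) and Lyl1 without 11 somites replicate 1 (0.0479). Some of these calls rested on single embryos. In Smchd1wt embryos Tie1 did not pass without 6 somites replicate 1 (adjusted p = 0.0518). In Smchd1matΔ embryos Tie1 passed whichever embryo was left out, whereas Cdh5 and Tal1 did not pass without 6 somites replicate 2 (adjusted p = 0.0617 and 0.0543) or 7 somites replicate 1 (0.067 and 0.0585), and Cdh5 did not without 10 somites replicate 3 (0.054) or 11 somites replicate 2 (0.0719) either. The Lyl1 call was lost when any of 12 of the 16 Smchd1matΔ embryos was left out (adjusted p up to 0.149, without 11 somites replicate 2). Pecam1, which did not pass in these embryos (adjusted p = 0.0625), passed without 7 somites replicate 2 (0.0412) or 11 somites replicate 1 (0.0463). The difference in slope between genotypes was tested directly and passed for none of the 10 genes (edgeR, 0% of 15978 genes called and 606 at an unadjusted p under 0.05, none of them a member, and 0 with DESeq2). It ranged from -0.031 for Tek to 0.087 for Pecam1 (95% interval -0.028 to 0.20).

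**Figure D3:**
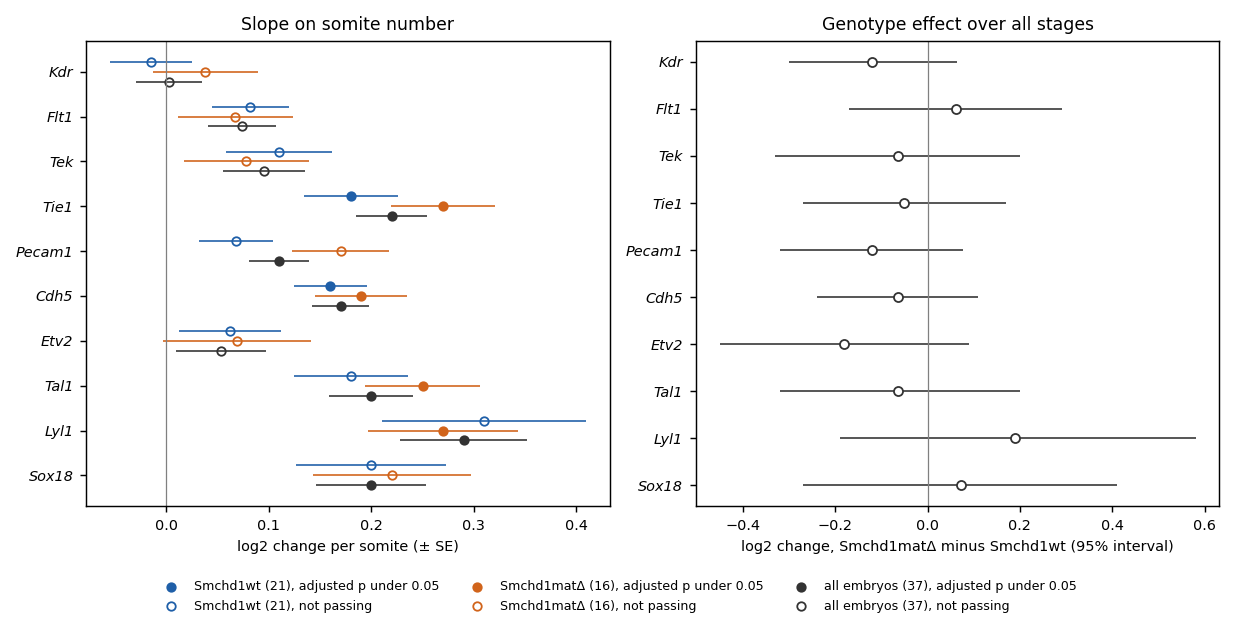
Left, log2 change per somite with its SE for each gene in Smchd1wt, Smchd1matΔ and all embryos, filled where the adjusted p was under 0.05. Right, log2 change of Smchd1matΔ against Smchd1wt embryos over all stages with its 95% interval, in which every interval spans 0.

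The second comparison asks whether loss of maternal SMCHD1 changed the level of these genes. Over all stages none of the 10 passed the test (edgeR with somite number and sex as covariates), where 0.0125% of 15978 genes did, 2 genes of which 1 was Smchd1 itself (-0.74 log2, adjusted p = 7.09e-08). None of the 10 had an unadjusted p under 0.05, and DESeq2 called none. Their log2 changes ran from -0.18 for Etv2 to 0.19 for Lyl1, with a median of -0.064 against -0.0023 over all genes tested, 7 below and 3 above 0. The 95% intervals follow from the SE. For Kdr the change was -0.12 (-0.30 to 0.063), for Cdh5 -0.064 (-0.24 to 0.11), for Etv2 -0.18 (-0.45 to 0.09) and for Lyl1 0.19 (-0.19 to 0.58).

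The values of the genotypes overlapped. Kdr ran from 97.3 to 210 CPM (median 166) in Smchd1wt and from 100 to 260 CPM (median 137) in Smchd1matΔ embryos. Cdh5 ran from 18.2 to 54 CPM (median 37) and from 19.3 to 62.8 (median 36.7). Etv2 ran from 9.8 to 30 CPM (median 16.4) and from 2.19 to 21.9 (median 14.1), where the lowest value, in the shallow embryo, rests on 2 counts. Of the 16 Smchd1matΔ embryos, 4 lay above the Smchd1wt mean of their stage for Kdr, 6 for Cdh5 and 9 for Etv2.

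At single stages no gene of the genome passed at any somite number in edgeR (0% of 14191 to 15332 genes called), with 84 to 1372 genes at an unadjusted p under 0.05. DESeq2 called 0 to 10 genes per stage, none of them a member. Of the 60 tests of 10 genes at 6 stages, 3 had an unadjusted p under 0.05: Tal1 at 7 somites (-0.61), Pecam1 at 8 (-0.54) and Lyl1 at 11 (1.04), with an adjusted p over all genes of the stage of 0.542 or more in each of the 60. At 8 somites all 10 changes were below 0 (-0.81 to -0.16), and at 9 somites 8 of 10 were above it. At 8 somites there were only 2 Smchd1matΔ embryos, and replicate 2 had 1 of its 10 genes above the median of all embryos where replicate 1 had 7. At 8 and 9 somites the Smchd1matΔ embryos were all female and the Smchd1wt embryos of both sexes. For Lyl1 at 11 somites the Smchd1wt embryos had 2.08 ± 0.347 CPM (n = 3) and the Smchd1matΔ embryos 4.3 ± 0.607 (n = 2), without overlap. At that stage 8.95% of all genes tested had an unadjusted p under 0.05. Within stages the genotypes also did not overlap for Pecam1 and Tal1 (2 stages each) and for Kdr (1 stage). The share of all genes without overlap in groups this small is not given here.

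Markers of other cell types also differed at single stages, none past adjustment. Of the primitive erythroid genes, 10 of 10 tested were below 0 at 7 somites (median log2 change -1.65), 13 of 13 at 8 somites (-2.90, 5 at an unadjusted p under 0.05) and 12 of 13 at 9 somites (-0.30), and 14 of 14 were above 0 at 11 somites (1.78, 11 at an unadjusted p under 0.05). At 6 somites 7 of 7 erythroid genes were above 0 (1.23), and at 10 somites 9 of 14 were (0.083). Of the 8 allantois and lateral plate genes, 8 were below 0 at 7 somites (-0.44) and 7 at 8 somites (-0.59). All 8 were above 0 at 9 somites (0.27), all 8 below it at 10 (-0.37), and 6 above it at 11 (0.30). At 6 somites 5 of the 8 were above 0 (0.20). The 10 visceral endoderm genes were all below 0 at 7 (-1.08) and 8 somites (-0.89) and all above 0 at 9 (1.18) and 11 somites. They were also all above 0 at 6 somites (0.15), and 6 of the 10 were at 10 somites (0.033). The 10 tailbud markers were all above 0 at 8 somites (0.51, 6 at an unadjusted p under 0.05). Of all genes tested, 2.67% at 8 somites and 8.95% at 11 had an unadjusted p under 0.05. The Smchd1matΔ groups of 8, 9 and 11 somites held 2 embryos each. Genes of a list can vary together, so a count in 1 direction is no count of separate changes. The part of these cell types in the values of the members at single stages was not tested.

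Sex was tested in the same embryos. None of the 10 passed the test of male against female embryos, where 0.219% of genes did (DESeq2 called none of the 10 either), and 1 had an unadjusted p under 0.05. This was Cdh5, with a log2 change of 0.22 ± 0.107 in males (edgeR adjusted p = 1). All embryos of 6 somites were female, and so were the Smchd1matΔ embryos of 8 and 9 somites, so stage and sex are linked in part. At 8 and 9 somites every male was a Smchd1wt embryo. Single stages were fitted without sex, so sex and genotype are linked there too. In males 8 of the 10 members, all 14 erythroid genes (median 0.83) and all 10 visceral endoderm genes (0.79) were above 0. All 10 tailbud markers were below it (-0.19), and none of these passed adjustment. The part of sex in the single-stage values was not tested.

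The third comparison asks whether the 10 genes varied together from embryo to embryo. All 45 pairs correlated positively over the 37 embryos in log2 CPM (prior count 2), with a median Pearson's r of 0.57 and Spearman's rho of 0.57. By permutation (100000, two-sided, Benjamini-Hochberg over the 45 pairs) 38 pairs passed by r and 42 by rho. The embryos share library composition as well as stage, so the same was computed for all pairs of the 15978 genes tested. Their median r was 0.018, and 5.71% of them reached an r of 0.5, which 55.6% of the pairs of members did (25 of 45).

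The pair with the highest r was Lyl1 and Sox18 (r = 0.87, permutation adjusted p = 3.46e-05, rho = 0.71). This r leaned on the shallow embryo, which held 0 counts of both genes, and was 0.78 without it and 0.69 without the 2 embryos farthest from the Lyl1 median. Etv2 and Sox18 (r = 0.81, rho = 0.62, permutation adjusted p = 6e-05) fell to 0.54 without that embryo, and Etv2 and Lyl1 from 0.64 to 0.33. By rank, Tie1 and Cdh5 (rho = 0.84, r = 0.79), Tal1 and Lyl1 (rho = 0.83, r = 0.79) and Pecam1 and Cdh5 (rho = 0.83, r = 0.77) were highest, with permutation adjusted p of 3.46e-05 for each r. Their r was 0.77, 0.79 and 0.83 without the shallow embryo, where 0.83 was the highest of all pairs, and 0.83, 0.80 and 0.80 without the 2 embryos farthest from the median of the gene named first. Tek ran against this. With the shallow embryo it had an r of 0.074 with Sox18, 0.11 with Etv2 and 0.20 with Lyl1, which did not pass, and 0.54, 0.47 and 0.51 without it.

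Kdr had a median r of 0.39 with the other members, and 0.40 without the shallow embryo. The median r of Tek was 0.35 with that embryo and 0.62 without it, and that of Etv2 0.53 and 0.39. The highest r of Kdr was with Etv2 (0.53, rho = 0.61, permutation adjusted p = 0.00109), and its r with Lyl1 was 0.20 (adjusted p = 0.244). Cdh5 was nearest to the others: among 15977 genes ranked by r with Cdh5, 5 of the other 9 members were in the first 100, and among genes ranked by r with Flt1, Cdh5 was first (r = 0.77). The median r of Cdh5 with the other 9 was 0.69, and 0.71 without the shallow embryo, where the medians of the 10 genes ran from 0.39 (Etv2) to 0.71.

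The correlations were also computed after removing the terms of the design together. After somite number (as a factor), genotype and sex were fitted and removed, the median r of the 45 pairs was 0.37, 41 were positive and 13 reached 0.5, or 28.9%, against 6.79% of all pairs of genes. Without the shallow embryo the residuals had a median r of 0.38, from -0.012 (Tie1 and Lyl1) to 0.77 (Flt1 and Cdh5). In these 36 embryos Flt1 and Cdh5 had an r of 0.77 before and after the fit, and Tie1 and Cdh5 went from 0.77 to 0.39. Within genotypes the median r was 0.63 in the 21 Smchd1wt and 0.49 in the 16 Smchd1matΔ embryos, a difference that was not tested.

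**Figure D4:**
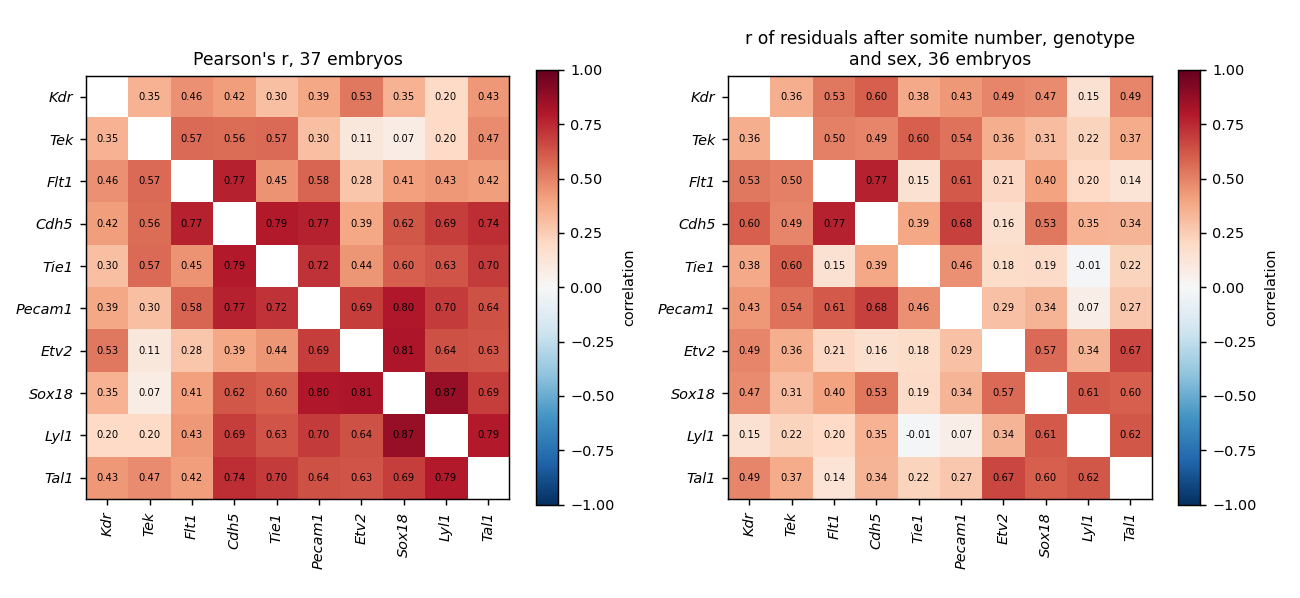
Pearson's r of log2 CPM for each pair of genes over 37 embryos (left) and of the residuals after somite number, genotype and sex in the 36 embryos other than the shallowest (right), with color from -1 to 1. Pairs of Cdh5 with Flt1, Tie1 and Pecam1 are high on the left (0.77 to 0.79), and of these Flt1 with Cdh5 is highest on the right at 0.77.

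Some embryos were high or low in nearly all the genes. At 6 somites each of the 8 embryos had 0 or 1 of the 10 genes above the median of all embryos, at 7 somites 0 to 6, at 8 somites 1 to 8, at 9 somites 7 to 10 and at 10 somites 6 to 10. At 11 somites, Smchd1wt replicate 2 had 0 of 10, and the other 4 embryos of that stage had 5 to 9. The depth of that library was 16.9 on the scale of 1e6 counts, above the median. It had 97.3 CPM of Kdr, the lowest of all 37 embryos, and 28.5 CPM of Cdh5, the lowest of the 12 embryos with 10 or 11 somites.

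Genes outside the list that varied most like it were sought by r with the mean standardised level of the 10 genes over the 37 embryos. The first 10 were S1pr1 (r = 0.91), Hlx (0.90), Plvap (0.89), Cldn5 (0.89), Eng (0.88), Igf2 (0.87), Gm49394 (0.86), Adam12 (0.85), Ets1 (0.84) and Plxnd1 (0.84). Of these, 5 were on the list of 46 other endothelial genes: S1pr1, a sphingosine phosphate receptor, Plvap, of endothelial diaphragms, Cldn5, of tight junctions, Eng, a TGF-beta co-receptor, and the ETS factor Ets1. Without the 2 libraries whose depth was under 4 on the scale of 1e6 counts their r was 0.80 to 0.90. Of the 15968 genes ranked, 42 were on the list of other endothelial genes, with a median rank of 178. The first 100 held 20 genes of that list or of the VEGF and angiopoietin genes described below. Igf2 and Gm49394 had like median levels (1663 and 1595 CPM) and slopes (0.12 each). Whether they count the same reads was not tested.

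Other genes of the pathway were followed from lists. Of the 42 tested genes on the list of other endothelial and haemangioblast genes, 25 rose with somite number over all embryos, 3 fell (Apln, Gata2 and Sox17) and 14 did not pass, with a median slope of 0.13, where 9.1% of all genes tested rose and 9.08% fell. The smallest p values belonged to the gap junction gene Gja5 (0.40 ± 0.0373 per somite, edgeR adjusted p = 1.94e-10), the sialomucin Emcn (0.71 ± 0.0789, adjusted p = 9.68e-09), Notch4 (0.27 ± 0.033, adjusted p = 4.61e-08), Plvap (0.31 ± 0.038, adjusted p = 1.26e-07), the haemangioblast factor Lmo2 (0.15 ± 0.0197, adjusted p = 4.74e-07) and S1pr1 (0.21 ± 0.0316, adjusted p = 4.54e-06). Gja5 and Notch4 are known from arterial endothelium. In Smchd1wt embryos 15 rose and 1 fell (3.05% and 3.16% of all genes), and in Smchd1matΔ embryos 14 rose and 1 fell (2.01% and 1.2%). None of the 42 passed for genotype in edgeR, with none at an unadjusted p under 0.05. The lowest p values were those of Ets1 (-0.18 ± 0.0933), Sox7 (-0.28 ± 0.18) and Gja5 (-0.18 ± 0.123), each with an adjusted p of 0.876 or more.

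Among ligands and co-receptors, Angpt1 (0.16 ± 0.0384 per somite, edgeR adjusted p = 0.0023) and Angpt2 (0.16 ± 0.0348, adjusted p = 0.000869), the ligands of TEK, rose, as did Vegfc (0.11 ± 0.0336, adjusted p = 0.024) and its receptor gene Flt4 (0.10 ± 0.034, adjusted p = 0.0412). Nrp1, a co-receptor of KDR that neural and mesodermal cells also make, fell by 0.16 ± 0.0217 (adjusted p = 5.12e-07). Vegfa, the main ligand of KDR, had a slope of 0.06 ± 0.0262 (adjusted p = 0.103). Vegfb, Nrp2 and Pgf did not pass, with slopes of 0.011, 0.019 and -0.11, and Vegfd, at 0 to 2.09 CPM, did not pass the filter on low counts in this fit. For genotype none of the 10 passed or had an unadjusted p under 0.05, and their changes ran from -0.25 (Vegfd) to 0.12 (Vegfb).

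In whole tailbuds, more cells of a type and more RNA per cell cannot be told apart, so the marker lists of other cells in or near the tailbud were measured beside these genes. Primitive erythroid genes (14 listed, 14 tested) summed to 13 to 3123 CPM (median 116) at 6 and 7 somites and to 123 to 4392 CPM (median 1084) at 10 and 11, and 9 of the 14 rose with somite number, where 9.1% of all genes did. Their defining globins reached 2682 CPM (Hbb-bh1), and Gata1 and Klf1 were at 0 in 3 embryos each. Tal1 and Lyl1, which act in blood progenitors too, correlated with this sum over the 37 embryos (Tal1 r = 0.71 and rho = 0.73, Lyl1 r = 0.69 and rho = 0.79, permutation adjusted p = 0.0001 each over 30 relations). The r was 0.68 and 0.75 without the 2 embryos farthest from the gene's median, and 0.57 and 0.56 in the residuals after somite number, genotype and sex. Within genotypes it was 0.75 and 0.68 for Tal1 and 0.81 and 0.58 for Lyl1 (Smchd1wt, Smchd1matΔ). Sox18 passed with an r of 0.45 (rho = 0.47, permutation adjusted p = 0.00915), which was 0.28 in the residuals. For Tie1 and Cdh5 the r of 0.46 and 0.47 (permutation adjusted p = 0.0124 each) came to -0.031 and -0.071 in the residuals, and Kdr had an r of -0.065 before and -0.10 after the fit.

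The allantois and lateral plate list (8 genes, among them Tbx4, Hand1 and Foxf1) summed to 152 to 517 CPM, with medians of 306 at 6 and 7, 353 at 8 and 9 and 277 at 10 and 11 somites. Etv2 correlated with it most (r = 0.72, rho = 0.79, permutation adjusted p = 0.0001, r = 0.78 without the 2 embryos farthest from the Etv2 median and 0.74 in the residuals). Kdr (r = 0.53), Tal1 (0.51), Sox18 (0.49) and Pecam1 (0.48) also passed, with permutation adjusted p of 0.00588, 0.007, 0.00588 and 0.00915. In the residuals their r was 0.48, 0.65, 0.53 and 0.52. For Tal1 this residual r of 0.65 lay above its 0.57 with the erythroid list. Kdr, Etv2 and Pecam1 thus passed with the allantois and lateral plate list and did not pass with the erythroid list. The r of Pecam1 with the erythroid list was 0.32 (permutation adjusted p = 0.11). The r of Etv2 with the erythroid list was 0.24 (permutation adjusted p = 0.233), and 0.39 within Smchd1wt embryos. Lyl1, Tie1 and Cdh5 passed with the erythroid list and did not with the allantois and lateral plate list. There their r was 0.33, 0.17 and 0.29 (permutation adjusted p = 0.11, 0.402 and 0.171). The difference between these correlations was not tested. The share of all genes that reach such an r with the erythroid or the allantois and lateral plate sum is not given here.

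**Figure D5:**
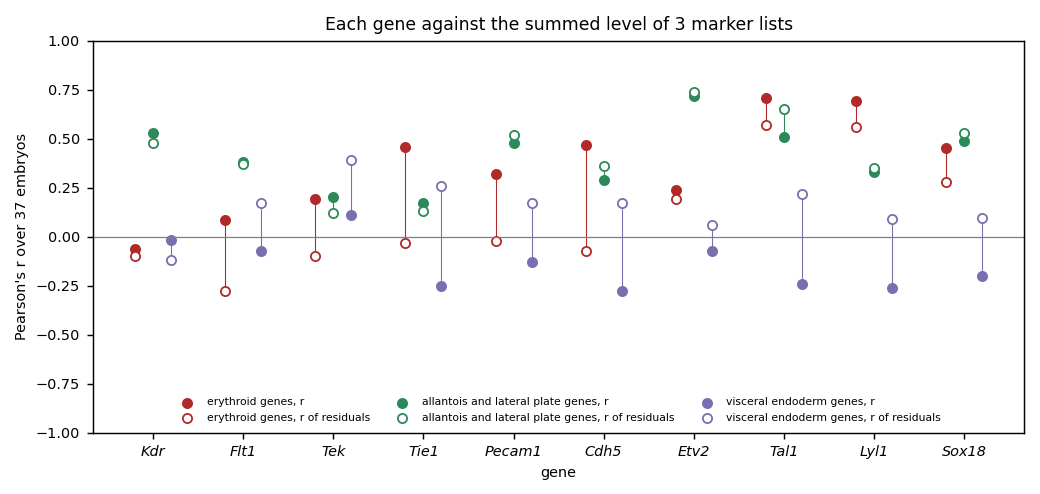
Pearson's r over 37 embryos between the log2 CPM of each gene and the log2 summed level of erythroid, allantois and lateral plate, and visceral endoderm genes (filled), and r of the residuals after somite number, genotype and sex (open). Tal1 and Lyl1 are highest with erythroid genes (0.71 and 0.69) and Etv2 with allantois and lateral plate genes (0.72). In the residuals Tal1 has 0.57 with erythroid and 0.65 with allantois and lateral plate genes.

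The visceral endoderm list (10 genes, among them Afp and Ttr) ran from 14.3 to 4801 CPM with a median of 1390 CPM at 6 and 7 somites and 208 at 10 and 11, and 3 of the 10 fell with somite number (Apob, Apom and Ttr), where 9.08% of all genes tested fell. No member correlated with it after adjustment (r = -0.28 for Cdh5 to 0.11 for Tek, permutation adjusted p of 0.18 or more). Megakaryocyte and macrophage genes, of which 3 of 8 could be tested, summed to 10.5 to 29.6 CPM, with Gp9, Pf4, Ptprc and Cx3cr1 at 0 in most embryos, and primordial germ cell and pluripotency genes to 23.5 to 118 CPM. Between genotypes the erythroid sum was 19.6 to 3986 CPM (median 617) in Smchd1wt and 13 to 4392 (median 352) in Smchd1matΔ embryos. In the same order the allantois and lateral plate sum was 152 to 479 (median 307) and 166 to 517 (median 271). The part of these cell types in the courses of the 10 genes was not tested.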

How the data were processed

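RNA was measured by single-end RNA-seq of 1 tailbud per library. According to the methods and the submitters' processing notes, the authors trimmed reads with Trim Galore 0.4.4, mapped them to GRCm38.p6 with HISAT2 2.0.5 and counted them per gene in SeqMonk, and the deposited counts are whole numbers that were not normalised. Libraries were made with an unstranded or a stranded kit, and which kit made which library is not given in the sources used here. Deposited log2 RPKM values of Hox genes and the authors' own fold changes and p-values were not used.

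From 35591 rows, 49 with a repeated identifier were dropped. Genes were tested with edgeR 4.0.16 (R 4.3.3) by the quasi-likelihood method after filterByExpr (minimum count 10) and TMM scaling, with Benjamini-Hochberg adjustment over all genes tested and a threshold of 0.05. SE were derived from the F statistic. Genotype was tested beside sex and a term per somite number, slopes beside sex (and genotype), and single stages with genotype alone. CPM used TMM factors, RPKM the merged exon length of GENCODE M21, and correlations log2 CPM with a prior count of 2. Tests were two-sided. Pairs of libraries within a group differed by more than sampling noise (chi-square per degree of freedom 5.12 to 72.3). Labels name separate embryos, but litters are not given. Intervals and floors (3 counts) cover counting error only where they rest on counts.

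The members, gene lists and marker lists were chosen with earlier results of these data known. All members and all tested VEGF and angiopoietin genes are named, with up to 6 other endothelial genes of smallest p that passed in a comparison (or 3 where none did) and the 10 genes most like the members. The slope and curvature over all embryos, the ratios to Kdr, the correlations with marker lists and the removal of the shallowest embryo from the correlations were chosen after seeing the data. DESeq2 1.42.0, RLE scaling, no filter, no sex term, females only, a replicate block and the removal of libraries were run as alternatives. The fits were tested on simulated data.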

Additional observations from a re-analysis of the deposited data

Results flagged for a closer look

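In the 4 groups of 4 embryos, 40 combinations of gene and group were checked for an embryo far from the other 3 by Dixon's ratio at its 95% critical value, of which chance flags about 1 in 20, and 4 were past it. Kdr was 159 CPM in Smchd1matΔ 6 somites replicate 4, against 118 to 123 CPM in the other 3 embryos. Flt1 was 20.2 CPM in Smchd1wt 10 somites replicate 4, against 28.4 to 30.1. Pecam1 was 4.39 CPM in Smchd1matΔ 6 somites replicate 3, against 13 to 14.5, and that value rests on 4 counts in the shallowest library. Etv2 was 23 CPM in Smchd1wt 10 somites replicate 1, against 15.6 to 16.4. No difference in slope between genotypes passed the test.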

How the results depend on the processing

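For all alternatives run, no member passed for genotype over all stages (45 alternatives), for genotype at any stage, for sex, for the difference in slope or for the squared term. Over all 37 embryos 4 to 7 members rose (44 alternatives, 6 as reported), with 4 in females only, where Pecam1 and Sox18 did not pass (adjusted p = 0.0618 and 0.055), and 7 without Smchd1matΔ 6 somites replicate 3, Smchd1matΔ 7 somites replicate 2 or Smchd1wt 11 somites replicate 2. In Smchd1wt embryos 2 members rose as reported, 5 with DESeq2, 1 in females only and 1 to 4 when 1 embryo was left out. Tie1 did not pass without Smchd1wt 6 somites replicate 1 (adjusted p = 0.0518), and 4 members passed without 8 somites replicate 3 or 11 somites replicate 2. In Smchd1matΔ embryos 4 rose as reported, 6 with DESeq2, 2 in females only, 1 without the 2 embryos rich in ribosomal RNA counts, and 1 to 4 when 1 embryo was left out. There 1 remained without 6 somites replicate 2 or 7 somites replicate 1, and 2 without 10 somites replicate 3 or 11 somites replicate 2. Lyl1 in particular did not pass in 15 of 23 alternatives (adjusted p up to 0.245). The cause was not tested.

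Several values near 0 changed sign, none of them past the threshold. The shared slope of Kdr was -4.5e-05 without sex, -0.011 without the 2 embryos rich in ribosomal RNA counts and -0.0079 to 0.022 when 1 embryo was left out, and its slope in Smchd1wt embryos -0.033 to 0.014. The genotype effect of Flt1 was -0.013 to 0.10 when 1 embryo was left out. The difference in slope became 0.066 (Flt1), 0.083 (Tek) and 0.004 (Etv2) in females only, 0.0011 (Flt1) and 0.00072 (Etv2) without the 2 embryos rich in ribosomal RNA counts, and 0.0063 (Tek) and -0.02 (Sox18) without the 2 libraries of lowest depth. When 1 embryo was left out it ran from -0.043 to 0.016 for Flt1, -0.066 to 0.0043 for Tek, -0.007 to 0.048 for Cdh5, -0.056 to 0.0036 for Etv2, -0.086 to 0.022 for Lyl1 and -0.032 to 0.056 for Sox18.

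Replicate numbers were not used to pair embryos in the reported fits. Same-numbered embryos of the 2 genotypes correlated at -0.286 to 0.582 in their deviations over 16 pairs. At 9 somites the values were 0.582 and 0.342, so this range does not settle whether the numbers pair embryos. With a replicate block the genotype effect was 0.07 for Tie1, 0.051 for Cdh5 and 0.0087 for Tal1, and 0 members and 3 genes in all passed, against 2 without it. Genome-wide, the slope was called for 941 genes in Smchd1wt (1500 with DESeq2, 1756 in females only, 1893 without 10 somites replicate 1) and 496 in Smchd1matΔ embryos (1127 with DESeq2, 181 in females only, 307 without the 2 embryos rich in ribosomal RNA counts, 314, 312 and 255 without 7 somites replicate 1, 10 somites replicate 3 and 11 somites replicate 2). Without a filter on low counts 52 genes passed for the difference in slope and 2 to 186 at 7, 8 and 11 somites, where the reported count was 0, with the block 2, 12 and 4 passed at 7, 8 and 9 somites, and leaving out 1 embryo gave up to 27 (11 somites, without Smchd1wt replicate 2). None of these genes was a member. The median r of the 45 pairs was 0.37 to 0.63 in all 8 alternatives. Depth limits Lyl1 and Sox18 most.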
